A study of Mus musculus with 6 samples.

Results

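Mesothelial genes were taken as 7 genes of the mouse lung by their names in the count table, namely Msln, Upk3b, Upk1b, Wt1, Lrrn4, Gpm6a and Rspo1. All 7 were found among 49315 genes. The rule names the genes and uses no measured value, though the list was drawn up with earlier results of these data known. RNA was sequenced from lung cells of male C57BL/6J mice that had received sterile saline (sham) or bleomycin sulfate (BLM) by oropharyngeal instillation, with lungs taken 21 days later. Their age was not given in the sources used here. Lungs of 2 to 3 mice of a group were pooled per tube and dissociated with collagenase, and viable cells were sorted on surface Lamp1, a lysosomal membrane protein, with no gate for cell type. Lamp1-enriched, Lamp1-depleted and unsorted cells of each treatment gave 6 libraries, 1 per condition. Mice within a pool cannot be separated, and a ratio between 2 libraries has no replicate check.

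The mesothelium is a single layer of squamous cells that covers the lung and lines the pleural cavity. It arises from the mesoderm, yet its cells carry keratins, an apical surface coat and surface proteins that are otherwise seen in epithelia. Mesothelial cells are known to take on a mesenchymal state during injury of serous surfaces, and bleomycin is widely used to produce fibrosis in the mouse lung. Mesothelin, encoded by Msln, is a glycolipid-anchored surface protein that binds the mucin encoded by Muc16. Upk3b and Upk1b encode uroplakins, membrane proteins first described in bladder epithelium. Wt1 encodes a zinc finger transcription factor of the developing and adult mesothelium. Lrrn4 encodes a membrane protein with leucine-rich repeats, Gpm6a a membrane glycoprotein of the proteolipid family, and Rspo1 a secreted R-spondin that raises Wnt signalling through Lgr receptors.

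Counted reads per library ranged from 30236120 in BLM Lamp1-depleted to 52918696 in BLM Lamp1-enriched cells. The BLM Lamp1-depleted library stood apart, since a single gene, Gm26917, took 38.4% of its reads and at most 7.1% of those of any other library. The members together held 134 to 1825 reads in a library, so that counting error was large for the rarer ones. Levels are given as CPM, reads per 1e+06 reads of a library whose size was scaled by the trimmed mean of M-values (TMM), and each value or ratio carries a 95% interval that covers counting error only. In bulk RNA, fewer cells of a type and less RNA per cell cannot be told apart. The mesothelial label rested on low levels. In sham unsorted cells the 7 members summed to 37.6 CPM, beside 6375 for 8 endothelial, 2508 for 7 leukocyte, 816 for 8 fibroblast and 360 for 5 alveolar type 1 markers. Calb2, which encodes calretinin, a further mesothelial marker, held 0 to 3 reads in every library.

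All members are protein-coding, and their exons share no base with another gene in the annotation of mouse build GRCm38. Msln lies at chr17:25748613-25754378 on the minus strand, Upk3b at chr5:136038496-136046487 on the plus strand and Upk1b at chr16:38773184-38800328 on the minus strand. Wt1 lies at chr2:105126529-105173616 on the plus strand and Lrrn4 at chr2:132868305-132880891 on the minus strand. Gpm6a lies at chr8:54954843-55060871 and Rspo1 at chr4:124986430-125009099, both on the plus strand. The members are thus spread over 6 chromosomes, and none adjoins another.

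RefSeq promoter windows of GRCm38.p6 were held for 4 members (Upk3b, Lrrn4, Gpm6a and Rspo1), with 2 starts for Gpm6a. The 250 bases upstream of the starts of Upk3b (chr5:136038246-136038495, plus strand) and Lrrn4 (chr2:132880863-132881112, minus strand) are shown. They were chosen because these members were called in opposite directions between the sorted fractions in sham and BLM cells, by the rule given further on. Capitals mark GGAATG or its reverse complement CATTCC, the core letters bound by TEAD factors.
Upk3b: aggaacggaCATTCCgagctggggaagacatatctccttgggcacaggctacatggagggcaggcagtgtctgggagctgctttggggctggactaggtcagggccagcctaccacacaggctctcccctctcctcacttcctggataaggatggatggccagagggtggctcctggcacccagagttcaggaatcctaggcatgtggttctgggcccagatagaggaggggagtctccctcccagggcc
Lrrn4: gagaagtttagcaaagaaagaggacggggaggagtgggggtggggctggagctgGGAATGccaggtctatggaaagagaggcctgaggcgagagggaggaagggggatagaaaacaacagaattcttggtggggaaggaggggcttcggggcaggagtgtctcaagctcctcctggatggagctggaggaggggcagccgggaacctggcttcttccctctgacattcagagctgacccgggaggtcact
Each window held 1 match, as did 1 of the 2 windows of Gpm6a, while the other Gpm6a window and that of Rspo1 held none. The start behind the matching Gpm6a window lay 175409 bases from the nearest start of the gene in the annotation used for its position. The start behind the Gpm6a window with no match lay 115 bases from it. GGAATG occurred on either strand in 12.6% of 32851 mouse windows of the same length. GCGTGGG, letters bound by WT1 and EGR factors, was in none of the 5 windows of members and in 4.3% of all windows. A match describes the letters and not a bound site.

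Compared per length of exon, as transcripts per 1e+06 (TPM), the members formed a similar order in both unsorted libraries, with Msln moving up after BLM. In sham unsorted cells, Gpm6a was at 11.5 TPM (10.6 to 12.5) and Upk1b at 11.3 (10.3 to 12.5), which their intervals do not separate. Upk3b followed at 6.46 (5.83 to 7.14). Msln at 2.93 TPM (2.49 to 3.44), Lrrn4 at 2.5 (2.12 to 2.93) and Rspo1 at 2.18 (1.7 to 2.75) formed a lower tier in which neighbours overlapped. Wt1 was the lowest at 0.423 TPM (0.307 to 0.568). In BLM unsorted cells, Gpm6a at 7.84 TPM (7.09 to 8.65) and Msln at 7.71 (6.95 to 8.54) had the highest values, with Upk1b at 6.52 (5.68 to 7.45) and Upk3b at 6.23 (5.59 to 6.92) next. The interval of Upk1b overlapped those of Gpm6a and Msln, and that of Upk3b did not. Lrrn4 at 3.31 TPM (2.86 to 3.81), Rspo1 at 1.99 (1.53 to 2.56) and Wt1 at 0.859 (0.685 to 1.06) came last, as in sham cells.

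The counts of each member are given for unsorted, Lamp1-depleted and Lamp1-enriched cells in that order. Msln had 151, 14 and 14 reads in sham libraries and 373, 34 and 195 in BLM libraries, or 3.11, 0.307 and 0.304 CPM against 9.46, 1.61 and 3.58. It was higher in BLM than in sham cells of every kind. Upk3b had 383, 49 and 24 reads in sham and 347, 19 and 157 in BLM libraries, or 7.89, 1.07 and 0.522 CPM against 8.8, 0.899 and 2.88. Its unsorted levels were close, and its order between the sorted fractions turned over. Lrrn4 had 156, 71 and 16 reads in sham and 194, 3 and 77 in BLM libraries, or 3.21, 1.56 and 0.348 CPM against 4.92, 0.142 and 1.41. The sham Lamp1-depleted library held more Lrrn4 reads than the sham Lamp1-enriched one, while the BLM Lamp1-depleted library held 3.

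Gpm6a, the most abundant member, had 622, 84 and 237 reads in sham and 398, 21 and 259 in BLM libraries, or 12.8, 1.84 and 5.15 CPM against 10.1, 0.994 and 4.75. Upk1b had 398, 73 and 171 reads in sham and 215, 15 and 228 in BLM libraries, or 8.2, 1.6 and 3.72 CPM against 5.45, 0.71 and 4.18. Both ran highest in unsorted and lowest in Lamp1-depleted cells of each treatment. Wt1 had 44, 13 and 6 reads in sham and 84, 23 and 6 in BLM libraries, or 0.906, 0.285 and 0.13 CPM against 2.13, 1.09 and 0.11. Rspo1 had 71, 16 and 28 reads in sham and 61, 19 and 17 in BLM libraries, or 1.46, 0.351 and 0.609 CPM against 1.55, 0.899 and 0.312. These were the rarest members, and after BLM both were lowest in Lamp1-enriched cells.

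**Figure D1:**
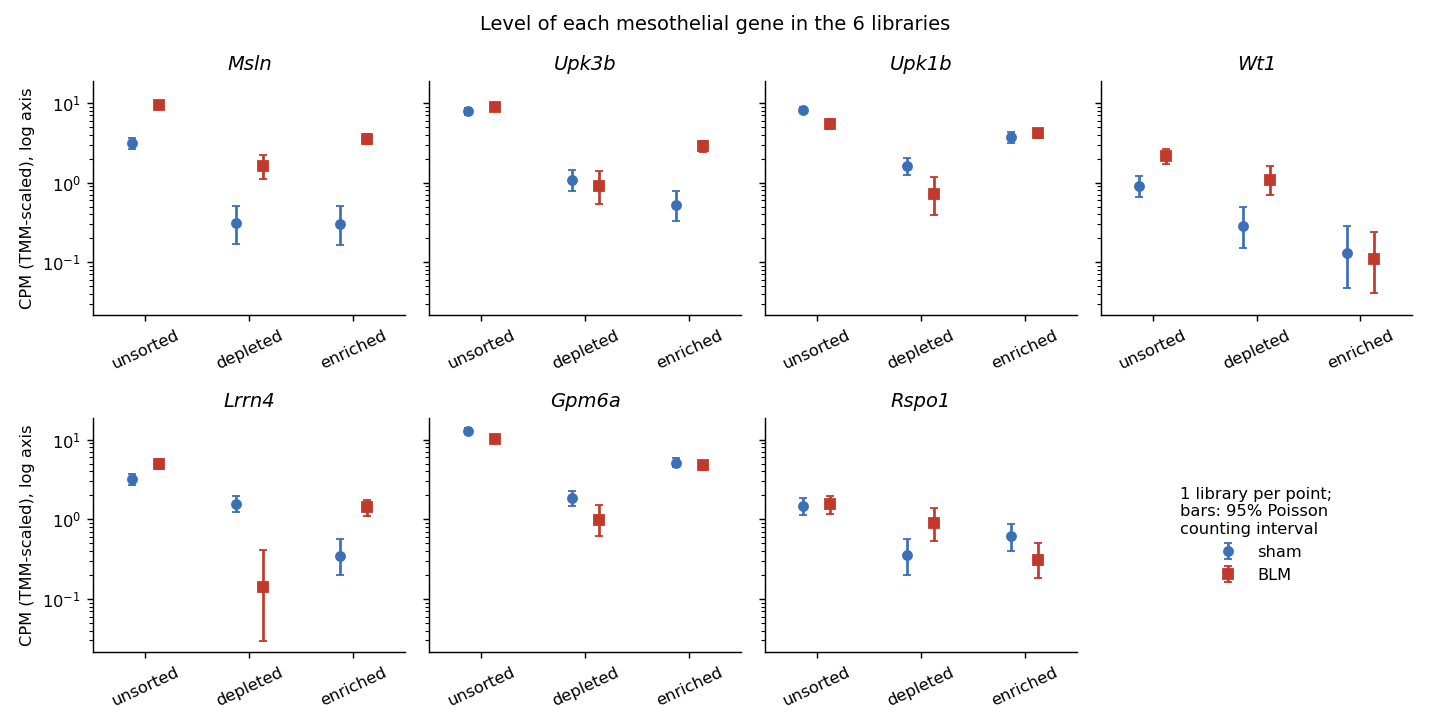
CPM of each member in the 6 libraries (TMM-scaled, log axis), with bars for 95% counting intervals. Unsorted cells were highest for all 7 members in sham libraries, and Msln in BLM unsorted cells reached 9.46 CPM against 3.11 in sham.

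BLM treatment was first examined in unsorted cells, where Msln and Wt1 were higher after BLM and the other members differed less. Msln was 3.03-fold higher, a log2 ratio of 1.60 (1.33 to 1.89), and Wt1 had a log2 ratio of 1.22 (0.69 to 1.79), which total-count scaling takes to 0.96 and out of the call. A member was called when the higher library held at least 10 reads, the log2 ratio was at least 1 in size and its interval lay on one side of 0. By this rule 2 of 7 members were called higher and 0 lower, beside 13.3% and 14.1% of all genes tested, a count too small to set the members apart from it. Lrrn4 had a log2 ratio of 0.61 (0.30 to 0.93), Upk3b of 0.16 (-0.06 to 0.37) and Rspo1 of 0.08 (-0.44 to 0.59). Upk1b at -0.59 (-0.84 to -0.35) and Gpm6a at -0.34 (-0.53 to -0.16) were lower beyond counting error and short of a call. The median over the members was 0.16, against -0.07 over all genes tested. Leukocyte markers summed to 18175 CPM in BLM and 2508 in sham unsorted cells, of which Lyz2 alone made 17243 and 1995. Of the 7 leukocyte markers 3 were called higher after BLM and 1 lower. The part of these markers in the members' ratios was not tested.

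In Lamp1-enriched cells the uroplakin Upk3b, Lrrn4 and Msln were all higher after BLM. Msln had a log2 ratio of 3.51 (2.77 to 4.45), which is 11.4-fold, Upk3b of 2.44 (1.84 to 3.15) and Lrrn4 of 1.99 (1.23 to 2.90). Of the 6 members with enough reads, 3 were called higher and 0 lower, beside 8.96% and 7.01% of all genes tested. Wt1 was not tested, with 6 reads in each library. Upk1b at 0.17 (-0.12 to 0.47) and Gpm6a at -0.12 (-0.38 to 0.14) had intervals that included 0, and Rspo1 was at -0.94 (-1.93 to -0.04). The median over the 6 members tested was 1.08, against -0.00 over all genes. Fibroblast markers summed to 408 CPM in sham and 1000 in BLM Lamp1-enriched cells, and endothelial markers to 11348 and 11533. Of the 8 fibroblast markers 3 were called higher (Col1a1, Col1a2 and Col3a1) and 1 lower, and 5 had a log2 ratio above 0. Inmt went from 110 to 17.9 CPM, Npnt from 83.3 to 47.9 and Pdgfra from 64.2 to 39.9. The part of these markers in the members' ratios was not tested.

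In Lamp1-depleted cells the members moved apart. Msln at a log2 ratio of 2.33 (1.45 to 3.40), Wt1 at 1.88 (0.89 to 3.04) and Rspo1 at 1.32 (0.32 to 2.41) were called higher after BLM. Lrrn4 at -3.32 (-5.77 to -1.85) and Upk1b at -1.16 (-2.08 to -0.36) were called lower. These were 3 higher and 2 lower of 7, beside 13.3% and 19.8% of all genes tested, and each of the 3 that were higher rested on 34 reads or fewer. Gpm6a was at -0.88 (-1.65 to -0.19) and Upk3b at -0.25 (-1.10 to 0.53). All of these ratios use the library in which Gm26917 took 38.4% of reads, and total-count scaling lowers every one of them by 0.72 on the log2 scale, which takes Rspo1 to 0.62 and ends its call and takes Gpm6a to -1.59.

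Msln was the only one of the 6 members tested in all 3 kinds of library that was called higher after BLM in each, as were 2.27% of 19055 genes. The direction for Msln held under every scaling tried.

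**Figure D2:**
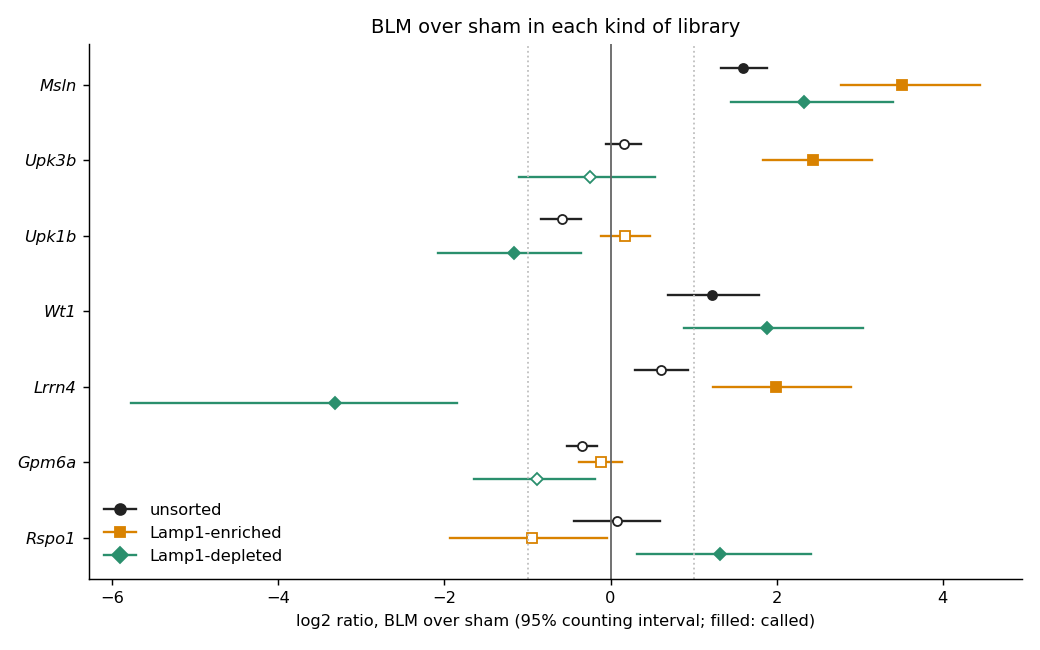
Log2 ratio of BLM over sham for each member in unsorted, Lamp1-depleted and Lamp1-enriched cells, with bars for 95% counting intervals. Msln lay at 1.60, 2.33 and 3.51, whereas Lrrn4 was at -3.32 in Lamp1-depleted and 1.99 in Lamp1-enriched cells.

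The make-up of the members' own reads does not depend on the scaling between libraries, and it also separated Msln. Msln took 8.27% (7.05 to 9.63) of the members' reads in sham unsorted, 4.38% (2.41 to 7.23) in sham Lamp1-depleted and 2.82% (1.55 to 4.69) in sham Lamp1-enriched cells. The shares in BLM libraries were 22.3% (20.3 to 24.4), 25.4% (18.3 to 33.6) and 20.8% (18.2 to 23.5) in the same order. No Msln interval of a BLM library overlapped that of a sham library. This comparison was chosen after the values were seen. The shares of Gpm6a were 34.1%, 26.2% and 47.8% in sham and 23.8%, 15.7% and 27.6% in BLM libraries, with intervals that overlapped in Lamp1-depleted cells (21.5 to 31.4 and 9.97 to 23) and not in the other kinds. The shares of Upk1b were 21.8%, 22.8% and 34.5% in sham and 12.9%, 11.2% and 24.3% in BLM. Since the shares of a library sum to a fixed whole, a higher share of one member lowers those of the others, and in Lamp1-enriched cells Upk1b itself was at 3.72 CPM in sham and 4.18 in BLM.

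For Upk3b, the share was level in unsorted cells at 21% and 20.8%, and in Lamp1-enriched cells it was 4.84% (3.12 to 7.11) in sham and 16.7% (14.4 to 19.3) in BLM. Lrrn4 took 22.2% (17.8 to 27.1) of the members' reads in sham Lamp1-depleted cells and 2.24% (0.464 to 6.4) in BLM Lamp1-depleted cells. In that BLM library Wt1 took 17.2% (11.2 to 24.6) and Rspo1 14.2% (8.76 to 21.3), against 0.639% (0.235 to 1.39) and 1.81% (1.06 to 2.88) in BLM Lamp1-enriched cells. The sorted BLM fractions thus differed in which members made up the reads of the 7 genes, and not only in how many there were. In BLM Lamp1-depleted cells this rested on 134 reads of a single library, with 23 of Wt1 and 19 of Rspo1. Whether these reads came from a single cell type was not tested.

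**Figure D3:**
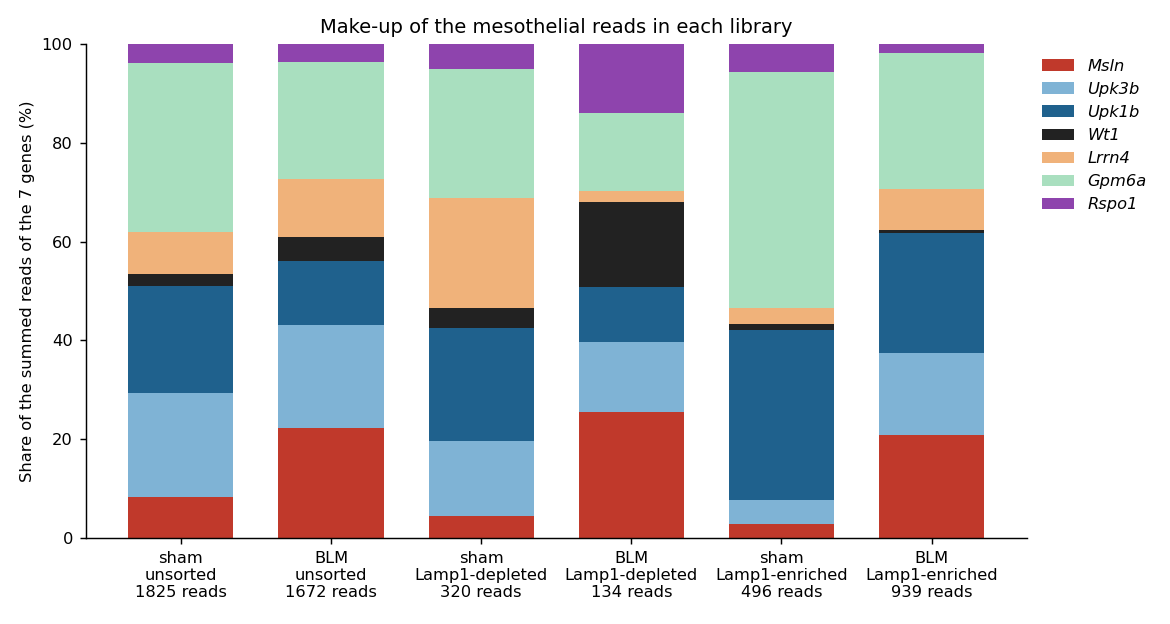
Share of the 7 members' reads taken by each member, in percent, for the 6 libraries. Msln held 2.82% to 8.27% in sham libraries and 20.8% to 25.4% in BLM libraries.

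The sort on surface Lamp1 asked which genes mark cells with more of this protein at the membrane. In sham cells the members were called in both directions. Gpm6a and Upk1b were higher in Lamp1-enriched than in Lamp1-depleted cells, with log2 ratios of 1.48 (1.12 to 1.86) and 1.21 (0.81 to 1.63). Lrrn4 was lower at -2.13 (-3.05 to -1.37), as was Upk3b at -1.03 (-1.81 to -0.31). These 2 higher and 2 lower of 7 stand beside 26.5% and 24.5% of all genes tested, near those shares, and do not set the members apart. Msln at -0.01 (-1.19 to 1.16), Wt1 at -1.07 (-2.81 to 0.37) and Rspo1 at 0.78 (-0.14 to 1.78) had intervals that included 0, on 6 to 28 reads a library. From Lamp1-depleted to Lamp1-enriched sham cells, endothelial markers went from 1454 to 11348 CPM, fibroblast markers from 133 to 408, alveolar type 1 markers from 42.6 to 366 and leukocyte markers from 4590 to 1047, and their part in the members' ratios was not tested.

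In BLM cells 5 members were higher in the Lamp1-enriched fraction and 2 were lower, beside 31.4% and 22.3% of all genes tested. Lrrn4 had the highest log2 ratio at 3.20 (1.71 to 5.62), followed by Upk1b at 2.54 (1.81 to 3.42), Gpm6a at 2.24 (1.61 to 2.97), Upk3b at 1.66 (0.99 to 2.45) and Msln at 1.15 (0.62 to 1.72). The transcription factor Wt1 was lower at -3.16 (-4.89 to -1.97) and the secreted Rspo1 at -1.49 (-2.56 to -0.51). The median over the members was 1.66, against 0.29 over all genes tested. Total-count scaling raises every one of these ratios by 0.56, which takes Rspo1 to -0.94 and ends its call. Endothelial markers summed to 1039 CPM in BLM Lamp1-depleted and 11533 in BLM Lamp1-enriched cells, and fibroblast markers to 203 and 1000. Their part in the members' ratios was not tested.

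Upk3b and Lrrn4 were called lower in the Lamp1-enriched fraction of sham cells and higher in that of BLM cells, as were 161 of 20463 genes tested in both (0.787%), while the reverse held for 81 genes (0.396%) and for 0 members. The sham call of Upk3b rested on 24 against 49 reads, and it was lost with a prior count of 2 (-0.98) and with a minimum of 50 reads, which leaves Lrrn4 alone with opposite calls. The difference of the log2 ratios, BLM minus sham, was 5.23 (3.50 to 6.96) for Lrrn4 and 2.67 (1.70 to 3.65) for Upk3b. It was 1.31 (0.46 to 2.15) for Upk1b and 0.75 (0.02 to 1.48) for Gpm6a, which kept 1 sign in both treatments. For Msln it was 1.15 (-0.02 to 2.32). Rspo1 at -2.30 (-3.58 to -1.02) and Wt1 at -2.15 (-4.00 to -0.31) had the opposite sign. These intervals cover counting error only. With total counts, the difference was 1.88 (0.71 to 3.05) for Msln, 1.48 (0.75 to 2.21) for Gpm6a and -1.42 (-3.26 to 0.42) for Wt1, so that which of these intervals include 0 depends on the scaling. With DESeq2 size factors it was 0.58 (-0.14 to 1.31) for Gpm6a, and without Gm26917 0.69 (-0.04 to 1.42).

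**Figure D4:**
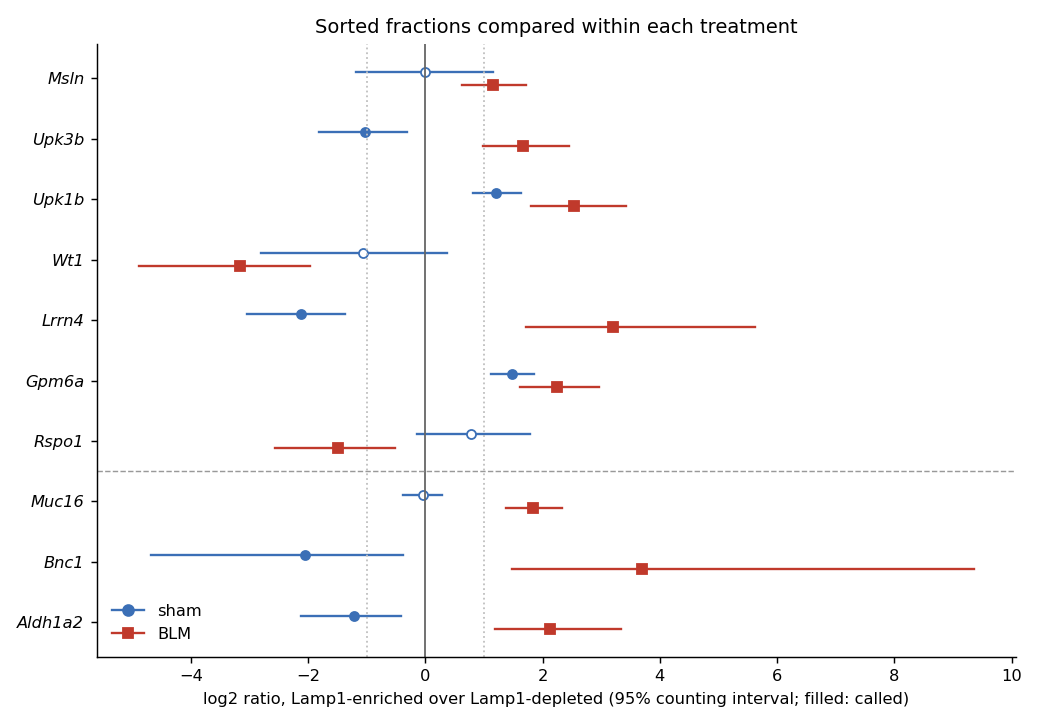
Log2 ratio of Lamp1-enriched over Lamp1-depleted cells for each member in sham and BLM cells, with bars for 95% counting intervals. Muc16, Bnc1 and Aldh1a2, below the dashed line, are not members and come from a list of 24 other genes. Bnc1 and Aldh1a2 are the genes of that list with opposite calls in the 2 treatments. Lrrn4 went from -2.13 in sham to 3.20 in BLM cells and Upk3b from -1.03 to 1.66, while Gpm6a and Upk1b stayed above 0.

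The only test with residual error set both Lamp1-enriched libraries against both Lamp1-depleted libraries, with treatment as a block, in edgeR's quasi-likelihood test. Gpm6a rose by 1.75 on the log2 scale (adjusted p = 0.0048) and Upk1b by 1.74 (adjusted p = 0.00976), each higher in 2 of 2 pairs. These 2 of 7 members stand beside 21.5% of all genes tested that were higher and 19.2% that were lower. The count is too small to set the members apart from all genes. Wt1 had a log2 change of -2.32 (adjusted p = 0.118) and did not pass. The adjusted p was 0.58 for Msln at 0.54, 0.837 for Upk3b at 0.23, 0.938 for Lrrn4 at 0.12 and 0.765 for Rspo1 at -0.45. The test measured the mean effect of the sort over the 2 pairs. Its 1 residual degree of freedom is how the sort differed between a single sham and a single BLM pool. The fit set its prior to infinity, so a gene's error came from the fit over all genes and not from its own 2 pairs. Without the treatment block 0 members passed, and with total counts Upk1b no longer did.

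Both sorted fractions were next set against the unsorted cells of the same treatment, which both comparisons share. In sham cells every member was lower in each fraction than in unsorted cells. For Lamp1-enriched over unsorted cells the log2 ratios were -3.89 (-4.58 to -3.32) for Upk3b, -3.31 (-4.26 to -2.56) for Msln, -3.17 (-4.05 to -2.46) for Lrrn4 and -2.70 (-4.32 to -1.56) for Wt1. They were smaller in size for Gpm6a at -1.31 (-1.54 to -1.10), Rspo1 at -1.25 (-1.95 to -0.62) and Upk1b at -1.14 (-1.41 to -0.88). All 7 were called lower, beside 14.2% of all genes tested, and 0 higher, beside 2.04%.

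In Lamp1-depleted against unsorted sham cells all 7 were again called lower, beside 29.2% of all genes, and 0 higher, beside 17.6%. Their log2 ratios ran from -3.30 (-4.25 to -2.55) for Msln to -1.04 (-1.47 to -0.63) for Lrrn4. Leaving Gm26917 out of the scaling took Lrrn4 to -0.94 and left 6 called. Being called lower in both fractions held for 7 of 7 members and for 6.52% of 22015 genes, or for 6 members without Gm26917. The summed level of the members showed it directly, at 37.6 CPM in unsorted, 7.02 in Lamp1-depleted and 10.8 in Lamp1-enriched sham cells. In the same order, fibroblast markers summed to 816, 133 and 408 CPM and airway epithelial markers to 104, 15.7 and 66, so that this order was not particular to mesothelial genes.

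In BLM cells the summed level was 42.4 CPM in unsorted, 6.34 in Lamp1-depleted and 17.2 in Lamp1-enriched cells. Against unsorted cells, 6 members were called lower in the Lamp1-enriched fraction (beside 18.3% of all genes) and 0 higher (11.3%). Wt1 was the furthest down at -4.15 (-5.76 to -3.09), followed by Rspo1 at -2.27 (-3.18 to -1.52), while Upk1b at -0.38 (-0.66 to -0.11) was not called. In the Lamp1-depleted fraction 5 were called lower (31.5% of all genes) and 0 higher (16.5%), from Lrrn4 at -4.96 (-7.40 to -3.55) to Msln at -2.54 (-3.11 to -2.05). Wt1 at -0.96 (-1.70 to -0.29) and Rspo1 at -0.77 (-1.61 to -0.02) were not called there. With total counts Wt1 was at -1.46 and Rspo1 at -1.27, and all 7 were called. Called lower in both fractions were Msln, Upk3b, Lrrn4 and Gpm6a, which is 4 of 7 members beside 8.22% of 20779 genes, and 6 with total counts.

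The distance of Lamp1-enriched from unsorted cells was smaller after BLM for some members. The difference of the log2 ratios, BLM minus sham, was 2.28 (1.63 to 2.93) for Upk3b, 1.91 (1.09 to 2.72) for Msln, 1.37 (0.55 to 2.20) for Lrrn4 and 0.76 (0.38 to 1.13) for Upk1b. For Gpm6a it was 0.23 (-0.08 to 0.54) and for Wt1 -1.47 (-3.12 to 0.18), both with 0 inside the interval, and for Rspo1 it was -1.03 (-2.02 to -0.04). None of these 7 differences uses the reads of the BLM Lamp1-depleted library, though the TMM factors were taken over all 6 libraries. Total-count scaling moves every sham ratio by -0.22 and every BLM ratio by 0.05. Whether the intervals of Gpm6a and Rspo1 include 0 therefore depends on the scaling.

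**Figure D5:**
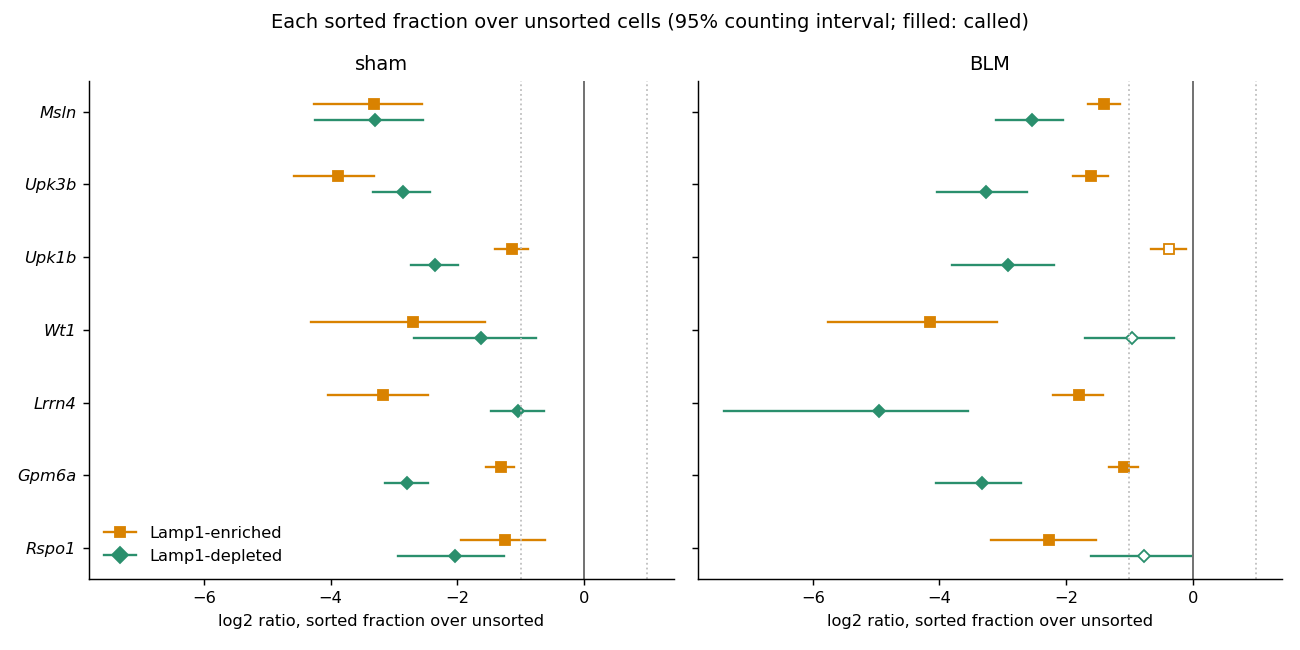
Log2 ratio of each sorted fraction over unsorted cells of the same treatment, by member, with bars for 95% counting intervals. Every ratio lay below 0, from -4.96 for Lrrn4 in BLM Lamp1-depleted cells to -0.38 for Upk1b in BLM Lamp1-enriched cells.

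Over the 6 libraries, which all pairs of genes share, Upk1b and Gpm6a had the most similar profiles of any pair of members, with a root mean square (RMS) difference of 0.24 between their centred log2 CPM and a Pearson correlation of 0.98. Wt1 and Rspo1 had a correlation of 0.86, Msln and Upk3b 0.86, and Upk3b and Lrrn4 0.85. Upk1b and Wt1 had -0.01. The member closest to the mean profile of all 7 was Upk3b, with an RMS difference of 0.52, and the farthest was Wt1 at 1.24. These are descriptions over 6 libraries.

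The 5 other genes whose profile was most like the mean profile of the members were Pcsk6, Cldn1, Muc16, Klhdc7a and Pkhd1l1. Their RMS differences were 0.24, 0.26, 0.31, 0.32 and 0.32, with correlations of 0.98, 0.97, 0.97, 0.97 and 0.98. Pcsk6, which encodes a proprotein convertase, had 135, 29 and 36 reads in sham and 208, 17 and 57 in BLM libraries, in the order unsorted, Lamp1-depleted and Lamp1-enriched. Cldn1, a claudin of tight junctions, had 309, 96 and 77 reads in sham and 368, 27 and 139 in BLM. Both held their highest counts in unsorted cells of each treatment. Muc16, whose product is the binding partner of mesothelin, had 802, 151 and 148 reads in sham and 794, 42 and 387 in BLM libraries. Its log2 ratio of Lamp1-enriched over Lamp1-depleted cells was -0.04 (-0.38 to 0.29) in sham and 1.83 (1.37 to 2.33) in BLM cells, and that of BLM over sham in Lamp1-enriched cells was 1.14 (0.87 to 1.43). With total-count scaling the ratio of BLM over sham in unsorted cells moved from 0.28 to 0.02.

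A list of 24 other genes of mesothelial cells, many of them shared with epithelium or mesenchyme, did not move as a block. In unsorted cells 2 of 23 tested were called higher after BLM and 7 lower, beside 13.3% and 14.1% of all genes, with a median log2 ratio of 0.11. The 7 lower included Aldh1a1, Dpp4 and Efemp1. In Lamp1-enriched cells 5 of 21 were higher (Aldh1a2, Bnc1, Fgf9, Muc16 and Pdpn) and 4 lower, beside 8.96% and 7.01%, with a median of 0.23. The calls of Bnc1 and Fgf9 rested on 3 and 2 sham reads. Those lower included Aldh1a1 at -2.10 (-2.21 to -1.99) and Dpp4 at -1.12 (-1.16 to -1.08). In Lamp1-depleted cells 6 of 21 were higher, among them the keratins Krt7, Krt8, Krt18 and Krt19, and 6 were lower, beside 13.3% and 19.8%, with a median of 0.27. Efemp1 at -2.34 (-3.20 to -1.63), Aldh1a1, Dpp4 and Aldh1a2 were among the 6 lower. Krt19 was at 1.03 (0.63 to 1.43), and at 0.31 with total counts. In the same comparison 3 of 4 airway epithelial markers tested were called higher, with a median of 2.10, as were Cdh1, an epithelial cadherin, at 1.35 (1.12 to 1.59) and Ager, an alveolar type 1 marker, at 1.66 (1.39 to 1.94). Their part in the keratin ratios was not tested. Pdpn, which encodes podoplanin, a surface glycoprotein also of lymphatic endothelium and alveolar type 1 cells, was called higher in all 3, at 3.11 (2.99 to 3.24), 1.47 (1.31 to 1.64) and 3.13 (2.67 to 3.65) in unsorted, Lamp1-enriched and Lamp1-depleted cells. It had 4344 reads in BLM and 617 in sham unsorted cells.

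Between the sorted fractions 12 of 21 genes of this list were called higher in Lamp1-enriched cells and 4 lower in sham, beside 26.5% and 24.5% of all genes, and 13 of 21 higher and 2 lower in BLM, beside 31.4% and 22.3%. Markers of other cell types were also called higher in sham Lamp1-enriched cells, namely 8 of 8 endothelial, 5 of 5 alveolar type 1 and 6 of 8 fibroblast markers. Bnc1, a zinc finger transcription factor, and Aldh1a2, which makes retinoic acid, were called lower in sham and higher in BLM, as Lrrn4 and Upk3b were. These were 2 of the 20 genes tested in both. Bnc1 had 14 Lamp1-depleted and 3 Lamp1-enriched reads in sham against 1 and 42 in BLM libraries, for log2 ratios of -2.06 (-4.68 to -0.39) and 3.69 (1.47 to 9.36). Aldh1a2 had 42 and 18 reads in sham against 9 and 104 in BLM libraries, for -1.21 (-2.12 to -0.41) and 2.13 (1.18 to 3.33). Krt8, a keratin of simple epithelia, was higher in Lamp1-enriched cells of both treatments, at 4.36 (3.44 to 5.68) in sham and 1.47 (1.05 to 1.92) in BLM.

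R-spondins act through the receptors Lgr4, Lgr5 and Lgr6 and slow the removal of Frizzled receptors by the ligases Znrf3 and Rnf43. Of 17 other genes of this pathway, 1 of 15 tested was called higher after BLM in unsorted cells (Apcdd1) and 5 lower (Lgr5, Nkd1, Notum, Rspo3 and Tnfrsf19), with a median log2 ratio of -0.54 and beside 13.3% and 14.1% of all genes. In Lamp1-enriched cells 0 of 15 were higher and 2 lower, beside 8.96% and 7.01%, and in Lamp1-depleted cells 1 of 15 was higher and 4 lower, beside 13.3% and 19.8%. Rspo3, a related ligand, had 267, 30 and 187 reads in sham and 62, 24 and 114 in BLM libraries. In unsorted cells it was lower after BLM at -1.80 (-2.23 to -1.40), where Rspo1 was at 0.08.

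The receptor Lgr4 was higher in Lamp1-enriched than in Lamp1-depleted cells at 1.72 (1.40 to 2.07) in sham and 3.77 (2.87 to 4.96) in BLM cells, the latter on 327 against 9 reads. Lef1, a transcription factor of the Wnt pathway that T cells also express, was lower at -3.49 (-3.62 to -3.36) and -4.48 (-4.67 to -4.30). In this comparison 8 of 14 pathway genes were higher and 3 lower in sham, beside 26.5% and 24.5% of all genes, and 7 of 16 higher and 4 lower in BLM, beside 31.4% and 22.3%.

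Relatives and neighbours of the members had other patterns or few reads. Among the other uroplakins, Upk2, Upk3a, Upk3bl and Upk1a had at most 16 reads in any library, so that Upk1b and Upk3b were the uroplakin genes with substantial counts. Gpm6b, the relative of Gpm6a, had 2126, 428 and 2223 reads in sham and 603, 97 and 974 in BLM libraries, and was called lower after BLM in all 3 kinds of library, at -1.52 (-1.65 to -1.39), -1.03 (-1.37 to -0.71) and -1.43 (-1.55 to -1.33) for unsorted, Lamp1-depleted and Lamp1-enriched cells. Lrrn4cl, named after Lrrn4, was called higher after BLM in unsorted cells at 1.55 (1.03 to 2.11), with 103 against 43 reads. Mslnl, a gene like Msln, had at most 15 reads. Wt1os, which starts beside Wt1 on the opposite strand and shares no exon base with it, had 7, 0 and 0 reads in sham and 21, 3 and 0 in BLM libraries. Whether the counting used strand was not given in the sources used here.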

How the data were processed

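The authors deposited raw read counts per gene, 1 column per library, with no normalization. The submitters' processing notes name Trimmomatic 0.36, STAR 2.5.2b, featureCounts of Subread 1.5.2, DESeq2 and build GRCm38. The annotation release and the strand setting were not given in the sources used here. Columns were matched to conditions by sample titles, and 0 per-sample columns went unused. Of 49315 identifiers, 48970 were found in GENCODE M21, the source of exon lengths and positions.

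TMM factors over 6 libraries (0.699 to 1.19) came from edgeR 4.0.16 under R 4.3.3. Log2 ratios with a prior count of 0.5, scaled to library size, and 95% Clopper-Pearson intervals were computed in Python 3.11.15 (numpy 2.4.6, scipy 1.17.1, pandas 2.3.3). Levels carry 95% Poisson intervals. Differences of log2 ratios add 0.5 to each count without scaling, and their intervals use a normal approximation that is rough at few reads. Such a difference can therefore depart slightly from that of the printed ratios. With 1 library per condition no p-value was given for a treatment. TPM used exon lengths over the matched genes. The edgeR quasi-likelihood test used the 4 sorted libraries, filterByExpr, a treatment block and Benjamini-Hochberg adjustment at 0.05, with a single residual degree of freedom (1), a prior set to infinity by the fit, and a biological coefficient of variation of 0.316. It was fitted to 20593 genes.

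The members and lists were chosen with earlier results of these data known. All members were named. Of each list, genes called in at least 1 comparison or among the 5 with most reads could be named, and by likeness the 5 closest genes with at least 50 reads in a library. Calb2, Mslnl, Wt1os, the other uroplakins and Gm26917 were also named after their values were seen. Alternatives were DESeq2 1.42.0 size factors and Wald test, total counts, totals without Gm26917, a prior count of 2, minima of 1 or 50 reads, a log2 ratio of 3, no interval, libraries thinned to 18636423 reads outside Gm26917, no filter, all 6 libraries and no treatment block. Settings for results that join 2 comparisons and for Krt19 were added after seeing the data. Programs were tested on simulated data.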

Additional observations from a re-analysis of the deposited data

Results flagged for a closer look

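Between Lamp1-enriched and Lamp1-depleted cells, the log2 ratio for Upk3b was -1.03 with sham and 1.66 with BLM, opposite signs in the 2 treatments, with 1 pool each, so that the difference was not tested beyond counting error. Lrrn4 did the same, at -2.13 and 3.20, the latter against 3 reads in the BLM Lamp1-depleted library, and this difference was likewise not tested beyond counting error.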

How the results depend on the processing

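Of 310 alternative values of the members' ratios, 0 reversed a called direction, 305 stayed within the counting interval and 5 left it. This interval was wide for members with few reads, so staying inside it is a weak check. Upk3b in unsorted cells, not called, went from 0.16 to -0.11 with total counts. Total counts also took the members higher after BLM in unsorted cells from 2 to 1 (Wt1 at 0.96), those lower in BLM Lamp1-enriched than Lamp1-depleted cells from 2 to 1, and the edgeR calls from 8386 genes to 4436 and from 2 members to 1. Without the treatment block edgeR called 5077 genes and 0 members, whereas with all 6 libraries it called 3 members. The causes of these shifts were not tested. A minimum of 50 reads left 0 of 3 members higher after BLM in Lamp1-depleted cells, 1 of 2 lower in sham Lamp1-enriched than Lamp1-depleted cells and 0 of 2 in BLM. A prior count of 2 left 1 of 2 lower in the sham sort (Lrrn4, without Upk3b), and thinning left 1 of 2 lower after BLM in Lamp1-depleted cells. A log2 ratio of at least 3 left, after BLM, 0 members higher in unsorted, 1 in Lamp1-enriched and 0 in Lamp1-depleted cells, with 1 lower in the last. Between sorted fractions it left 0 higher and 0 lower in sham, and 1 higher and 1 lower in BLM. Against unsorted cells it left 3 lower in sham and 1 in BLM Lamp1-enriched cells, and 1 in sham and 3 in BLM Lamp1-depleted cells. A log2 ratio of at least 3 left 1 member lower in both fractions than in unsorted sham cells, 0 in BLM and 0 with opposite calls between the sorts, where a prior count of 2 or a minimum of 50 reads left 1 (Lrrn4). These joint counts under each setting were added after seeing the data. Of 201 alternatives for counts, 173 stayed within 1.5 times. The labels give no replicate numbers, so the only pairing was the treatment block. Depth limits the sorted libraries, where each member had at most 21 reads in at least 1 of them.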
